A study of Mus musculus with 13 samples.

Results

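The 40 mouse genes of the cell cycle described here were followed in RNA-seq counts of sorted natural killer (NK) cells, innate lymphocytes that kill infected or transformed cells. The genes were chosen by name, as widely used markers of DNA replication and mitosis, and all 40 were found among the 54532 gene identifiers counted. Liver-resident NK cells (LrNK) carry per the labels the sample type liver lymphocytes, and conventional NK cells (cNK) the sample type splenocytes, so any difference between them is also a difference between organs. Both came from C57BL/6J mice of 8 to 10 weeks, either wild type (WT, called B6 in the sample titles) or labelled CD8KO. The series title concerns how CD8+ T cells act on LrNK maturation through CD70 and CD27. How the knockout was made, and whether animals were pooled, is not stated in the labels. There were 4 LrNK WT libraries and 3 libraries in each of the other groups, with no treatment or time course.

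The cell cycle is a sequence of commitments. In G1, cyclin E with its kinase and the E2F factors open the way to S phase, where licensed origins fire and PCNA clamps the polymerases to DNA. FOXM1 and the mitotic cyclins then drive the late genes, whose products build the spindle, attach chromosomes to it and destroy the cyclins at anaphase. Lymphocytes at rest hold low levels of these transcripts, and dividing cells hold much more. In bulk samples such as these, fewer dividing cells and less RNA per dividing cell cannot be told apart.

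Several properties of the libraries touch every result below. In LrNK WT, libraries 2 and 4 agreed far more closely than any other LrNK WT pair (chi-square per degree of freedom 3.149), and LrNK libraries 2 and 3 of the CD8KO label did likewise (2.787). Other LrNK pairs had values of 197.1 to 285.2. Each close pair was summed and counted as 1 sample, which left n = 3 for LrNK WT, n = 2 for LrNK labelled CD8KO and n = 3 for each cNK group. Libraries held 30578631 to 72716020 counts. LrNK WT 1, LrNK WT 3 and LrNK CD8KO 1 had 13917 to 15797 genes with counts, while the other 8 samples had 20547 to 24101. Cd8a, the gene the label names, was not lost: it stood at 0.561 to 0.578 CPM (counts per 1e6 counts of the sample) in the cNK WT samples, but 85.9 to 109 CPM where the label was CD8KO. In LrNK its level was 20.1 to 20.5 CPM for WT and 41.6 and 43.7 CPM for the CD8KO label. The word "labelled" is therefore kept throughout, and directions are those of the labels. The 9 markers of resident NK cells summed to 2055 to 3632 CPM in LrNK and 196 to 217 CPM in cNK, and the 9 markers of conventional NK cells to 242 to 753 CPM and 4943 to 5581 CPM, so the cell type labels matched their markers. Nothing in the labels says that replicates came from separate animals, so p-values measure the spread between these samples, which may be technical.

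The promoters of the 40 genes shared sequence features that the choice by name had not used. RefSeq windows (GRCm38.p6), from 250 bases before to 50 bases after the start of transcription, were found for 32 of the 40 genes and gave 33 windows of 300 bases. No window was found for Aurkb, Ccna2, Ccne2, Foxm1, Kif20a, Mcm4, Stmn1 and Tpx2. Words were searched on both strands. The cell-cycle homology region, known from promoters of late genes, was searched as TTTGAA or TTCGAA. At least 1 of these words was present in 15 of 19 windows of the mitotic genes with Mki67 and Top2a (78.9%), against 2 of 14 windows of the G1, licensing and synthesis genes (14.3%) and 19.2% of all 32851 windows. E2F words (TTTCCCGC, TTTCGCGC, TTTGCCGC or TTTGGCGC) ran the other way, in 6 of 14 early windows (42.9%), 1 of 19 late windows (5.26%) and 2.26% of all windows. The CCAAT box (CCAAT) was present in 64.3% of early and 89.5% of late windows, against 37.4% of all. TATAAA was present in 0 of 33 windows, and in 13.6% of all. These counts describe letters only and show no binding. Overlapping TTTGGCGC and TTTCGCGC were found once in Mcm6, and the CCAAT words of Ube2c overlapped once.

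The windows of 5 genes are printed below, on the strand of the gene, for genes whose levels carry the results that follow: Pcna and Mcm6 for the early genes, Spag5, Ube2c and Top2a for the late ones. Capitals mark the CCAAT, E2F and cell-cycle homology words on either strand. Pcna lay at chr2:132253131-132253430 on the minus strand and held 1 CCAAT box. Mcm6 lay at chr1:128359656-128359955 on the minus strand and held 2 CCAAT boxes and 3 E2F words. Spag5 lay at chr11:78301341-78301640 on the plus strand, with CCAAT boxes beginning 20 and 3 bases before the start and the word TTTGAA on the opposite strand. Ube2c lay at chr2:164769679-164769978 on the plus strand, with 6 CCAAT boxes and TTTGAA on the opposite strand 29 bases before the start. Top2a lay at chr11:99024140-99024439 on the minus strand and held 6 CCAAT boxes and 4 homology words.
Pcna: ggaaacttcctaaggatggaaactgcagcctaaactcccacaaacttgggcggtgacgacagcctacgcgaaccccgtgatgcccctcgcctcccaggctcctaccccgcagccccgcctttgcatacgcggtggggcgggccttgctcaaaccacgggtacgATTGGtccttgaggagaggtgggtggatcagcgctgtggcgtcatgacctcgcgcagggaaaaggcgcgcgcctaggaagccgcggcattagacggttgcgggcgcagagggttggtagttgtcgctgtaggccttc
Mcm6: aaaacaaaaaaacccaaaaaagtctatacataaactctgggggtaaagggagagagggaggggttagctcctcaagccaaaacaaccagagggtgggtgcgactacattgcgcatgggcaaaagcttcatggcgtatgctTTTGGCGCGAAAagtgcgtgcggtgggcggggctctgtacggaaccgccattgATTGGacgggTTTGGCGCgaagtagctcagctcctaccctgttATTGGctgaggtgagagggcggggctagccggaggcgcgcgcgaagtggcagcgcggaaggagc
Spag5: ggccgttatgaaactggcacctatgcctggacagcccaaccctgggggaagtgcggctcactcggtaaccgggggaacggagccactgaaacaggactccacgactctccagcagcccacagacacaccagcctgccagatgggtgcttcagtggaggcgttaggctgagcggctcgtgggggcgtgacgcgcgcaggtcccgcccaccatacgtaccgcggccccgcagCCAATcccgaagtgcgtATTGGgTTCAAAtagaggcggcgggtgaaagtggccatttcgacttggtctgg
Ube2c: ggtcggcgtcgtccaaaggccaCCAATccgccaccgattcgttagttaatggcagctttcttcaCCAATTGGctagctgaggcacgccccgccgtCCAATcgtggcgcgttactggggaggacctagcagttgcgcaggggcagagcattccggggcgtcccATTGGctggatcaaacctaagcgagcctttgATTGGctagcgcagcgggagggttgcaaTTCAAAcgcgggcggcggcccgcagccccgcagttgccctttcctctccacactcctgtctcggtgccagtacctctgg
Top2a: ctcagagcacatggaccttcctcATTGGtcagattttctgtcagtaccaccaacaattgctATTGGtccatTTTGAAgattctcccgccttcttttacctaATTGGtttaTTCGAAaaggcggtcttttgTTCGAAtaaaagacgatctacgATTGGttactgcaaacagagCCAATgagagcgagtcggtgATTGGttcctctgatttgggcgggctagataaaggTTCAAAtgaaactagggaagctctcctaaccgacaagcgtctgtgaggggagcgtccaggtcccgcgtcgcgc
The early windows printed here carry no cell-cycle homology word, and the late ones carry at least 1. No E2F word of the 4 was present in the late windows printed.

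Transcripts of the 40 genes were a small and similar share of every sample. Their summed level was 1036 to 1202 CPM for LrNK WT and 1068 to 1130 CPM for cNK WT. Under the CD8KO label it was 1057 and 1105 CPM for LrNK, and 1097 to 1155 CPM for cNK. The 4 groups overlapped in this sum. Replication licensing and DNA synthesis genes made up most of it, with 458.2 to 639.9 and 237.8 to 501.8 CPM over all samples. The 8 mitotic cyclins, kinases and Foxm1 together reached 15.85 to 39.82 CPM. Per kilobase of exon, Pcna, the sliding clamp, had the highest level in all 4 groups, at 148.9 ± 38.2 CPM per kb (SD, n = 3) in LrNK WT and 77.3 ± 2.42 CPM per kb in cNK WT. In cNK WT the next were Mcm6 at 32.0 ± 1.41 CPM per kb and Mcm4 at 27.2 ± 1.62 CPM per kb, 2 subunits of the replicative helicase. The kinetochore protein Cenpf was lowest in all 4 groups, at 0.198 ± 0.0475 CPM per kb in cNK WT. Mki67, the gene of the Ki-67 antigen used to score proliferation, ranked 13 of the 40 in both cNK groups.

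**Figure D1:**
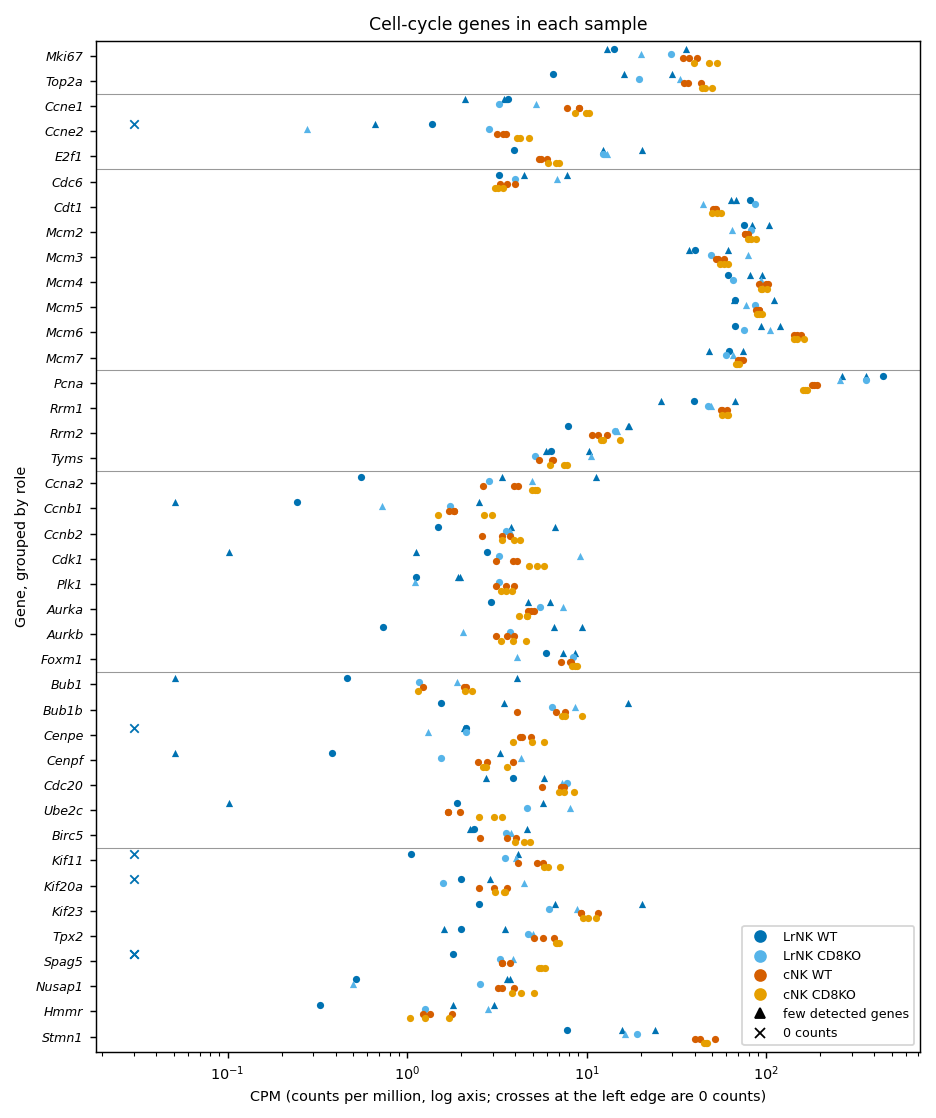
Level of each of the 40 genes in CPM on a log axis, 1 symbol per sample, grouped by role and coloured by cell type and label; triangles mark the 3 LrNK samples with few detected genes and crosses stand for 0 counts, where symbols can coincide. The 6 cNK samples lie close together for most genes, while LrNK WT spreads widely, with all 6 crosses in LrNK WT.

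The LrNK samples varied far more among themselves than the cNK samples did. The median coefficient of variation over the 40 genes was 56.1% for LrNK WT, 29.8% for LrNK labelled CD8KO, 9.52% for cNK WT, and 7.80% for cNK labelled CD8KO. Other genes of the same range of levels also varied more in LrNK (32.7%, 23.6%, 6.08% and 6.13% in the same order). LrNK WT 3 had 0 counts for Cenpe, Kif11, Kif20a and Spag5, and under 10 counts for 9 of the 40 genes. LrNK WT 1 had 0 counts for Ccne2 and Spag5. A count of 0 in these samples allows up to 0.0705 CPM in LrNK WT 1 and 0.0768 CPM in LrNK WT 3, counting error only. All 40 genes had counts in the other 9 samples. LrNK WT 1, with few detected genes, was nevertheless the highest of the LrNK WT samples for Mki67, and LrNK WT 2, with many, was the lowest for Top2a.

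Between cNK labelled CD8KO and cNK WT, Spag5 was the 1 gene of the 40 that rose, and no gene fell. That is 2.5% of the genes, against 1.31% of all 16619 genes tested, of which 0.499% rose and 0.812% fell (edgeR quasi-likelihood test, Benjamini-Hochberg adjusted p under 0.05). Spag5 encodes astrin, a spindle protein that helps hold chromosomes to microtubules. It stood at 3.38, 3.37 and 3.76 CPM in the WT samples and reached 5.43, 5.88 and 5.59 CPM under the CD8KO label. All labelled samples were above all WT samples. The log2 change was 0.68 ± 0.14 (SE), with an adjusted p of 0.0264 by edgeR. The call was lost without cNK WT 1 (0.65), cNK WT 2 (0.66), cNK CD8KO 2 (0.65) or cNK CD8KO 3 (0.69), with nearly the same size of change, and in a fit of all 4 groups (0.68).

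Most of the other late genes had a log2 change above 0 in cNK, and none of them passed the test by edgeR. Of the 25 mitotic genes with Mki67 and Top2a, 22 were above 0 and 3 below. Of the 40 log2 changes, 33 were above 0 (82.5%), against 49.5% of all genes tested, and the median was 0.14 against -0.00. Without cNK CD8KO 2 these were 29 of 40 and 0.07, and over all samples left out in turn the median ran from 0.07 to 0.21. The SD of the sample medians was 0.131. The members are not independent of each other, and the median over the 25 mitotic genes with Mki67 and Top2a was 0.23, against 0.04 over the 15 genes of G1, licensing and synthesis. At an unadjusted p under 0.05 there were 8 of the 40, against 12.9% of all genes. Groups did not overlap, labelled above WT, for 10 genes (25.0%, against 9.68% of all genes), and below WT for 2 genes (5.0%, against 8.35%). These 10 were Tpx2, E2f1, Ube2c, Ccna2, Ccne2, Foxm1, Cdk1, Spag5, Top2a and Kif11.

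Mki67 stood at 34.6, 37.4 and 41.1 CPM in WT cNK, with 39.7, 48.3 and 53.3 CPM under the CD8KO label. The lowest labelled sample was below the highest WT sample. Its log2 change was 0.32 ± 0.09, with an adjusted p of 0.108 by edgeR. Top2a, the topoisomerase that untangles DNA in dividing cells, went from 34.8, 43.1 and 36.8 CPM to 43.9, 45.5 and 49.7 CPM. Its groups did not overlap, and the log2 change was 0.27 ± 0.08 with an adjusted p of 0.141 by edgeR. Ube2c, the ubiquitin-conjugating enzyme that works with the anaphase-promoting complex, was at 1.69, 1.97 and 1.68 CPM in WT and at 3.07, 2.51 and 3.37 CPM in the labelled samples. Here too the groups were apart, at a log2 change of 0.73 ± 0.20 and an adjusted p of 0.097 by edgeR. The kinase Cdk1, which starts mitosis, was at 4.08, 3.91 and 3.12 CPM and at 5.33, 5.82 and 4.75 CPM, again apart, with a log2 change of 0.51 ± 0.16 and an adjusted p of 0.167 by edgeR. By DESeq2, Ube2c, Mki67, Spag5 and Top2a were called higher, where 1.38% of all genes were, and Pcna lower, where 1.7% were.

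The genes of replication moved little by label in cNK. The 8 licensing genes, the helicase subunits Mcm2 to Mcm7 with the loaders Cdc6 and Cdt1, had a median log2 change of 0.01, and their changes ran from -0.18 to 0.09. Pcna was 1 of the 2 genes whose labelled samples all lay below WT, at 170, 164 and 161 CPM against 186, 191 and 180 CPM. Its log2 change was -0.17 ± 0.05, with an adjusted p of 0.136 by edgeR. The other was Aurka, a kinase of the spindle poles, at 4.22, 4.68 and 4.65 CPM against 4.88, 5.10 and 4.69 CPM. Its log2 change was -0.12 ± 0.14.

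Lists of further cell-cycle genes were described the same way in cNK. Of all genes there, 49.5% were above 0, 12.9% had an unadjusted p under 0.05 and 1.31% passed the test. Of 38 other G2 and M genes, 33 had a log2 change above 0 (86.8%), with a median of 0.22, and 0 of 38 passed the test by edgeR, with 9 at an unadjusted p under 0.05. Of 28 other S-phase genes, 19 were above 0 (67.9%), the median was 0.07 and 0 of 28 passed, with 5 at an unadjusted p under 0.05. Among 17 G1 cyclins, cyclin-dependent kinases and E2F family genes, only Ccnd2 passed, and it fell. Ccnd2, cyclin D2, went from 679, 672 and 586 CPM to 520, 468 and 529 CPM, a log2 change of -0.36 ± 0.06 with an adjusted p of 0.00924 by edgeR. Of 15 inhibitors and pocket proteins tested, 13 were below 0, and Cdkn1a passed the test. Cdkn1a, the inhibitor p21, was at 6.10, 6.99 and 4.48 CPM in WT and at 3.05, 2.85 and 3.53 CPM in the labelled samples. It fell by 0.91 ± 0.18 on the log2 scale, with an adjusted p of 0.0198 by edgeR. The Ccnd2 call was lost without cNK WT 1 (-0.33) or cNK CD8KO 2 (-0.31), and the Cdkn1a call without either of these (-0.89 and -0.85) or cNK WT 2 (-0.75). Both were also lost in a fit of 4 groups (-0.36 and -0.91).

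The sums of some marker lists also differed by label in cNK, as did that of the conventional NK markers. The 9 conventional NK markers summed to 5419 to 5581 CPM in WT and 4943 to 5229 CPM in the labelled samples. The 10 T cell markers summed to 437.5 to 468.1 and 473 to 488.5 CPM, led by Trbc1. The 10 B cell markers summed to 180.5 to 196.4 CPM in WT and 231.1 to 245 CPM in the labelled samples, led by Ighm. The 10 neutrophil and monocyte markers summed to 625.1 to 727.7 and 751.4 to 845.1 CPM, with Retnlg at 0 in WT. Most of this sum was Ccr2 (mean 669.6 and 767 CPM), while Lyz2 overlapped by label (12.02 to 16.28 and 14.28 to 18.91 CPM). The 10 erythroid markers summed to 195.1 to 213.4 and 226 to 232.1 CPM. Most of this sum was Car2 (mean 179.9 and 202 CPM), while Hba-a1 overlapped by label (1.631 to 2.709 and 1.42 to 3.234 CPM). The part of these cells in the changes of the 40 genes was not tested.

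**Figure D2:**
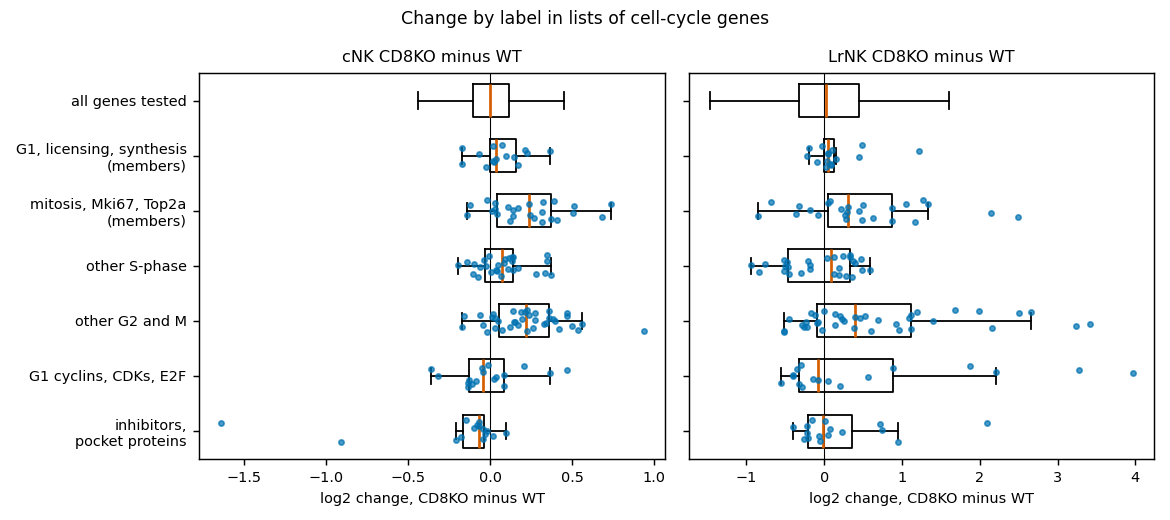
Log2 change, CD8KO minus WT, in cNK (left) and LrNK (right) for all genes tested, for the early and late genes of the 40 and for 4 lists of other cell-cycle genes; points are genes, boxes span the quartiles with the median in orange, and the x axes differ. In cNK the late genes and the other G2 and M genes are centred at 0.23 and 0.22, and all genes tested at -0.00.

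In LrNK, 0 of the 40 genes passed the test by label, as did 0% of all 16504 genes tested by edgeR. At an unadjusted p under 0.05 there were again 0 of the 40, against 3.73% of all genes, and neither DESeq2, which gave no adjusted p for 8 of them, nor voom called any. The median log2 change was 0.18, against 0.02 over all genes, and 30 of the 40 were above 0 (75.0%, against 51.4%). The median standard error was 0.87, so a 2-fold change of a typical member would lie near 1 standard error and was not detectable here. Groups did not overlap, labelled above WT, for Tpx2, Cdc20, Cdk1 and Spag5 (10.0%, against 9.84% of all genes), and below WT for 0 genes (against 8.47%). That share was close to the background.

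Spag5 in LrNK was at 0, 1.79 and 0 CPM in WT and at 3.90 and 3.31 CPM in the labelled samples. Both labelled samples were above all WT samples, though the 2 zeros came from the samples with few detected genes. The log2 change was 2.49 ± 2.47, an estimate that rests on those zeros. Cdk1 was at 1.13, 2.79 and 0.102 CPM in WT and at 9.16 and 3.25 CPM in the labelled samples, a log2 change of 2.14 ± 1.39. Cdc20, the activator of the anaphase-promoting complex, was at 5.83, 3.90 and 2.77 CPM and at 7.30 and 7.74 CPM, a log2 change of 0.88 ± 0.69. Mki67 was at 35.7, 14.2 and 13.04 CPM in WT and at 20.05 and 29.5 CPM in the labelled samples. Its highest and its lowest values were both WT, and the log2 change was 0.29 ± 0.49.

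Marker sums also differed by label in LrNK. The 8 markers common to NK cells summed to 7479 to 8975 CPM in WT and 4169 and 4684 CPM in the labelled samples, led by Gzma, a granule protease. The 9 conventional NK markers summed to 242.3 to 674.1 CPM and 682.4 and 753.3 CPM. The 10 T cell markers summed to 806.5 to 1080 CPM and 598.7 and 777.1 CPM, led by Trbc1. Trbc2 of that list was lower without overlap (310.8 to 396.7 CPM and 188.3 and 222.9 CPM). Trac (26.44 to 35.86 CPM and 38.6 and 40.91 CPM) was higher without overlap. So were Cd4 (3.69 to 10.55 CPM and 12.78 and 18.34 CPM) and Cd6 (3.842 to 6.088 CPM and 20.08 and 16.65 CPM). The 7 plasma cell markers summed to 200.5 to 382.7 CPM and 391.8 and 515.7 CPM. None of these sums overlapped by label. The part of these in the label comparison was not tested.

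Within samples of like gene detection the label comparison in LrNK gave different medians. Among the samples with few detected genes, 2 WT against 1 labelled, the median log2 change was 0.06, with 0 of the 40 called. Among those with many, 1 against 1 and so with no test, it was 0.96, and 35 of the 40 were above 0. The medians over all genes were 0.01 in both. By the interaction term in edgeR, 0 of the 40 were called for a different effect of the label in LrNK and cNK. Of all 19287 genes, 0.0415% were called, 0.00518% higher and 0.0363% lower. DESeq2, with no adjusted p for 2 of the 40, and voom also called 0 of them. At an unadjusted p under 0.05 by edgeR there were again 0 of the 40, against 8.44% of all genes. Spag5 alone was called without LrNK WT 2, where 3.06% of all genes were higher. For Spag5 the interaction was 1.86 ± 2.04. The median SE of the interaction over the 40 genes was 0.65, so the lack of calls does not show an equal effect.

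**Figure D3:**
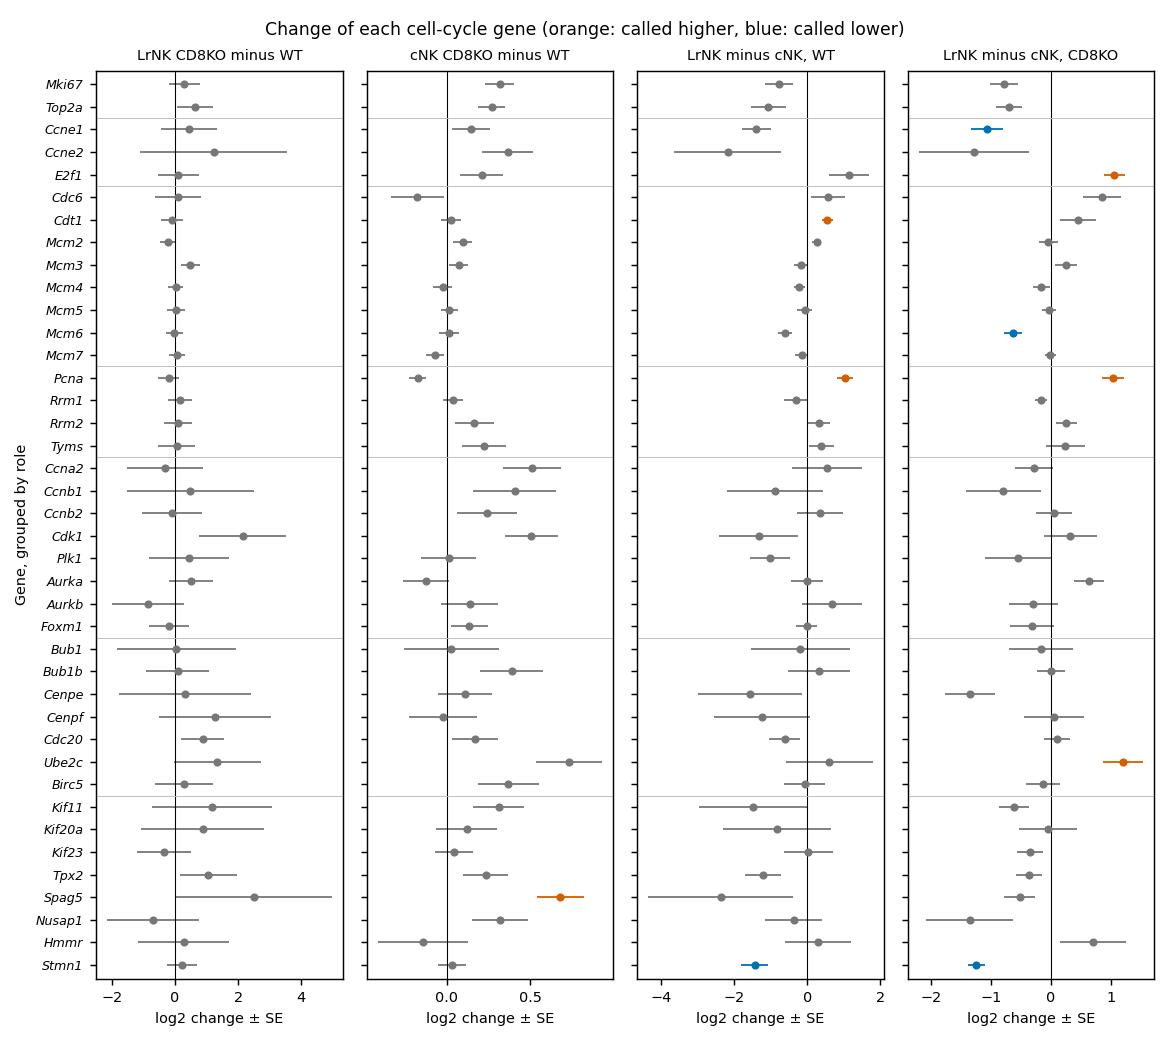
Log2 change with its SE for each of the 40 genes in the 4 comparisons, grouped by role, with called genes in orange (higher) or blue (lower), each panel with its own x axis. In log2 units, error bars are shortest in cNK by label and longest in LrNK by label, where no gene is called.

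Between LrNK and cNK of WT mice, 2 of the 40 genes were higher in LrNK and 1 was lower (7.5%, against 20.7% of all 16456 genes tested; 10.9% of all were higher and 9.83% lower). In the samples labelled CD8KO, 3 were higher and 3 lower (15% of the genes, against 27% of all 17795; 15.4% of all were higher and 11.6% lower). The share called was below the background in both. The 2 comparisons use different samples. In each, LrNK and cNK share an estimate of spread although LrNK samples varied far more, so SE and adjusted p below carry that limit. Scaled by library totals alone, the counts were 2 higher and 2 lower in WT (9.59% and 11.4% of all genes). In the labelled samples they were 2 higher and 5 lower (13.3% and 14.8% of all). Groups did not overlap for 2 genes higher in LrNK WT (5.0%, against 17% of all genes) and 11 lower (27.5%, against 31.7%). In the labelled samples these were 5 higher (12.5%, against 23.3%) and 17 lower (42.5%, against 38.4%).

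Pcna was higher in LrNK under both labels. It stood at 264, 448 and 360 CPM in LrNK WT, against 186, 191 and 180 CPM in cNK WT. In the samples labelled CD8KO it stood at 259 and 359 CPM in LrNK and at 170, 164 and 161 CPM in cNK. Every LrNK sample was above every cNK sample. The log2 difference was 1.04 ± 0.22 in WT, with an adjusted p of 0.0222 by edgeR, and 1.04 ± 0.18 in the labelled samples, with an adjusted p of 0.0122. The WT call was lost without cNK WT 1 (1.01), 2 (1.03) or 3 (0.98), and the other without cNK CD8KO 1 (1.06), 2 (1.03) or 3 (1.01), with the size kept. The processed copy Pcna-ps2 held 35 to 188 counts per sample, 0.305 to 1.09% of the counts of both.

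Stmn1 was lower in LrNK under both labels. Stmn1 encodes stathmin, which takes up tubulin and destabilises microtubules. It stood at 24.1, 7.80 and 15.7 CPM in LrNK WT, against 42.6, 51.7 and 40.3 CPM in cNK WT, and at 16.4 and 19.1 CPM against 46.8, 46.6 and 45.0 CPM in the labelled samples. Every LrNK sample was below every cNK sample. The log2 difference was -1.44 ± 0.37 in WT (adjusted p = 0.0367 by edgeR) and -1.25 ± 0.14 in the labelled samples (adjusted p = 0.00323). The WT call was lost without LrNK WT 3 (-1.44) or without cNK WT 1 (-1.52), 2 (-1.37) or 3 (-1.56).

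The genes of the G1 to S switch parted in direction. E2f1, the activating E2F factor, was at 12.4, 3.94 and 20.2 CPM in LrNK WT, against 5.46, 6.02 and 5.59 CPM in cNK WT. The WT groups overlapped, since LrNK WT 2 was below all cNK samples, and the log2 difference was 1.15 ± 0.55. In the labelled samples E2f1 was at 13 and 12.4 CPM in LrNK and at 6.11, 6.99 and 6.75 CPM in cNK. It was higher there by 1.06 ± 0.18, with an adjusted p of 0.0107 by edgeR. Ccne1, the cyclin E1 partner of CDK2, was at 3.46, 3.67 and 2.1 CPM in LrNK WT against 9.04, 7.83 and 9.12 CPM in cNK WT. Under the CD8KO label it was at 5.21 and 3.25 CPM against 8.66, 9.89 and 10.3 CPM. All LrNK samples were below all cNK samples. The log2 difference was -1.40 ± 0.40 in WT (adjusted p = 0.0511 by edgeR) and -1.07 ± 0.27 in the labelled samples (adjusted p = 0.0345). Without any 1 of the 3 cNK CD8KO samples, E2f1 (1.01, 1.11 and 1.07) and Ccne1 (-1.15, -1.05 and -1.03) lost their calls. So they did in a fit of 4 groups (1.05 and -1.09), and Ccne1 by voom (-1.21).

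Among the licensing genes, Cdt1 and Mcm6 passed in 1 comparison each. Cdt1, which loads the helicase, was at 68.0, 81.5 and 64.1 CPM in LrNK WT, against 50.9, 52.6 and 52.0 CPM in cNK WT. These groups were apart, and Cdt1 was higher by 0.55 ± 0.15 on the log2 scale, with an adjusted p of 0.0461 by edgeR. That call was lost without LrNK WT 1 (0.58) or any 1 of the cNK WT samples (0.50, 0.52 and 0.51), with no filter (0.50) and in a fit of 4 groups (0.52). Under the CD8KO label the LrNK samples lay on either side of cNK, at 44.5 and 86.4 CPM against 53.2, 55.9 and 49.9 CPM. Mcm6 was at 120, 67.5 and 93.1 CPM in LrNK WT against 148, 156 and 143 CPM in cNK WT, a log2 difference of -0.61 ± 0.18 with an adjusted p of 0.063 by edgeR. Under the CD8KO label it was at 105 and 75.6 CPM against 149, 163 and 143 CPM, lower by -0.63 ± 0.15 with an adjusted p of 0.0293. All LrNK values of Mcm6 were below all cNK values. The labelled call was lost without any 1 of the cNK CD8KO samples (-0.65, -0.57 and -0.68) and by voom (-0.66). The 5 other helicase subunits did not pass, with log2 differences from -0.23 to 0.25 in WT.

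Of the late genes other than Stmn1, Ube2c passed in the labelled samples. It was at 8.10 and 4.66 CPM in LrNK and at 3.07, 2.51 and 3.37 CPM in cNK, both LrNK samples above all cNK samples. The log2 difference was 1.21 ± 0.34, with an adjusted p of 0.0498 by edgeR, and it was lost without cNK CD8KO 1 (1.22), 2 (1.10) or 3 (1.29), by library totals (1.09), with no filter (1.19), by voom (1.06) and in a fit of 4 groups (1.19). In WT, Ube2c was at 5.71, 1.89 and 0.102 CPM against 1.69, 1.97 and 1.68 CPM, with LrNK on both sides of cNK. Mki67 and Top2a had log2 differences of -0.78 ± 0.38 and -1.07 ± 0.48 in WT, and of -0.79 ± 0.24 and -0.70 ± 0.21 in the labelled samples, with adjusted p from 0.0596 to 0.219 by edgeR. Both genes were lower in both LrNK samples labelled CD8KO than in any cNK sample of that label. For the cyclin Ccnb2, the copy Ccnb2-ps held up to 64.6% of the counts assigned to both. How reads fitting both were counted is not known, so the values of Ccnb2 are uncertain.

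**Figure D4:**
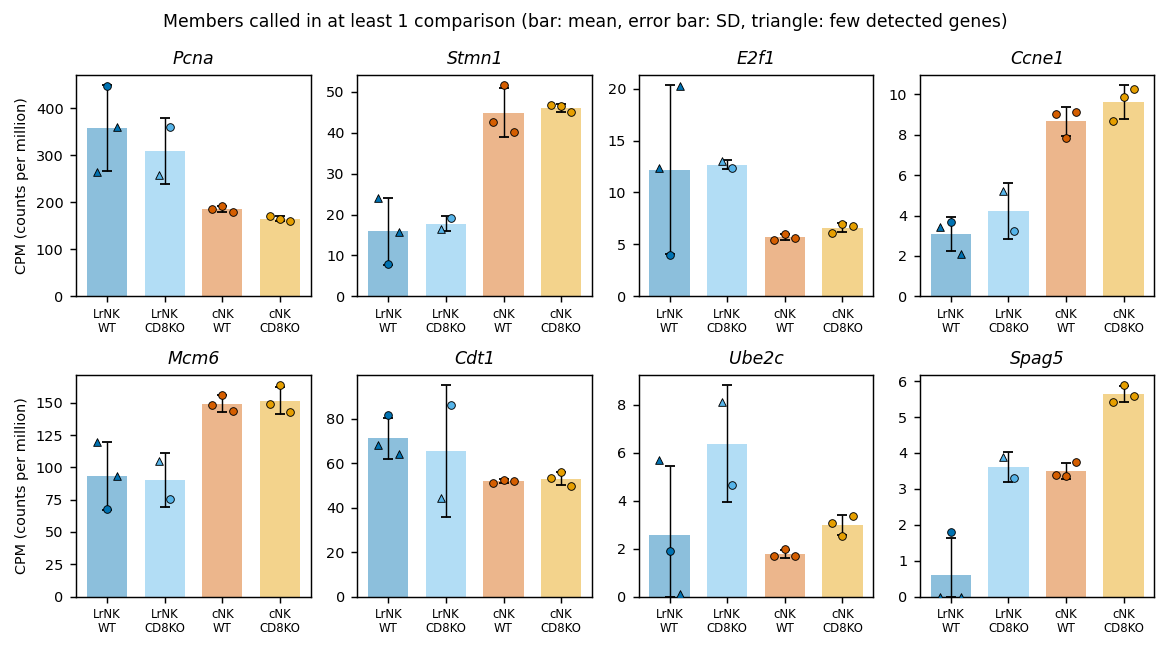
CPM of the 8 genes called in at least 1 comparison, with bars for the group mean, error bars for the SD (cut at 0), and a symbol per sample, triangles for samples with few detected genes. Pcna lies higher and Stmn1 and Ccne1 lower in every LrNK sample than in any cNK sample, and Spag5 in cNK lies at 5.43 to 5.88 CPM under the CD8KO label against 3.37 to 3.76 CPM in WT.

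The comparison of LrNK with cNK differed between samples of few and of many detected genes. LrNK WT 2, the sample with many, had a median log2 difference from cNK WT of -0.91 over the 40 genes, against -0.04 over all genes. The 2 WT samples with few had a median of -0.05, against -0.17, and of the 40 genes 4 were called higher (15.5% of all genes were) and 3 lower (25.8% of all genes were). In the labelled samples the median was -0.24 in the sample with many, against 0.01 over all genes, and -0.18 in the sample with few, against -0.24. Fits of a single LrNK sample take its spread from cNK, which the data do not bear out (biological coefficient of variation 98.2% in LrNK and 9.6% in cNK), so no calls from them are read here. Without LrNK WT 1 the WT comparison gave 1 higher and 5 lower, where 11.8% of all genes were higher and 12.9% lower. The median was then -0.71, against -0.18 with all samples.

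By role, the summed level of the DNA synthesis genes was 354.7 to 501.8 CPM in LrNK WT and 252.6 to 270.8 CPM in cNK WT. These sums did not overlap, and Pcna held most of them, while Rrm1, Rrm2 and Tyms each overlapped between the WT groups. The spindle and microtubule genes summed to 17.98 to 46 CPM in LrNK WT and 72.23 to 85.96 CPM in cNK WT, with Stmn1 the largest part in cNK. Mki67 with Top2a summed to 20.7 to 65.84 CPM and 69.38 to 80.5 CPM. The mitotic cyclins and kinases (15.85 to 39.46 against 30.55 to 33.42 CPM) and the kinetochore and checkpoint genes (11.09 to 40.33 against 22.12 to 30.38 CPM) overlapped between LrNK WT and cNK WT. These sums carry no test.

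**Figure D5:**
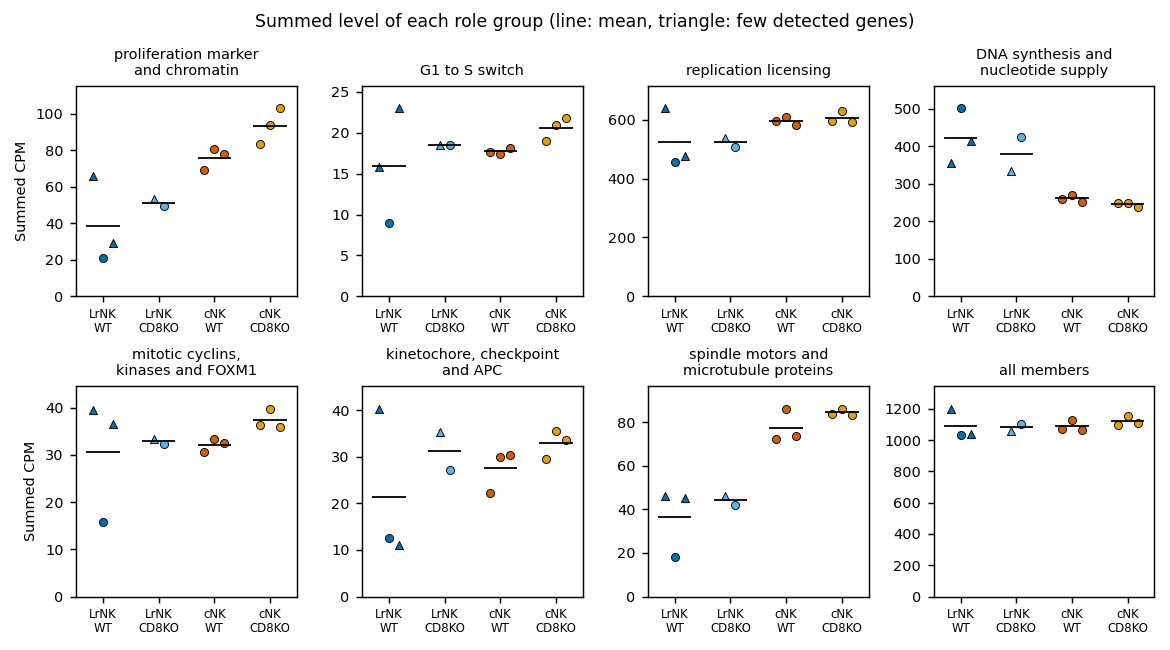
Summed CPM of each role group and of all 40 genes in each sample, with lines for group means and triangles for samples with few detected genes; every y axis starts at 0. The sum of the synthesis genes, most of it Pcna, is higher in every LrNK sample than in any cNK sample. That of the spindle genes, with Stmn1 the largest part in cNK, is lower. The sum of all 40 stays between 1036 and 1202 CPM.

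Other cell-cycle genes differed between LrNK and cNK in both directions. Of the 38 other G2 and M genes, 0 were higher and 4 lower in LrNK WT (10.5% called, against 20.7% of all genes). In the labelled samples 2 were higher and 2 lower (10.5%, against 27%). Of all genes, 10.9% were higher and 9.83% lower in WT, and 15.4% and 11.6% in the labelled samples. Racgap1, a regulator of cytokinesis, was the clearest, at 24.1, 19.1 and 27.2 CPM in LrNK WT against 100, 107 and 99.6 CPM in cNK WT. No samples overlapped, and the log2 difference was -2.05 ± 0.14 (adjusted p = 0.000367 by edgeR), and -1.68 ± 0.10 in the labelled samples. Hmgb2, a chromatin protein, was lower by -0.55 ± 0.13 and -0.90 ± 0.10. Of 28 other S-phase genes, 0 passed in WT by edgeR. An unadjusted p under 0.05 was found for 2 of them, and for 5454 of all 16456 genes. In the labelled samples Gins4 (-0.50 ± 0.11) and Prim1 (-1.64 ± 0.41) were lower (7.14% called, against 27% of all genes). With any 1 cNK sample of the same label left out, the calls of Hmgb2 in WT (-0.61, -0.55 and -0.60), Gins4 (-0.51, -0.49 and -0.50) and Prim1 (-1.61, -1.65 and -1.68) were lost, as was Gins4 by voom (-0.53), while Racgap1 remained called under both labels.

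Of the 17 G1 genes, 3 were higher and 3 lower in LrNK WT (35.3% called, against 20.7% of all genes). In the labelled samples 2 were higher (11.8%, against 27%). Cdk2, the kinase partner of cyclin E, was at 46.6, 46.6 and 42.0 CPM in LrNK WT against 21.4, 22.9 and 22.9 CPM in cNK WT, higher by 1.09 ± 0.13, and by 1.02 ± 0.14 in the labelled samples. Ccnd1, cyclin D1, was higher by 4.28 ± 0.52 in the labelled samples, at 39.4 and 11.8 CPM against 1.21 to 1.74 CPM. Ccnd1 was also called higher in LrNK WT, at 4.842, 3.507 and 8.145 CPM against 1.279 to 1.663 CPM in cNK WT. Among 15 inhibitors and pocket proteins, 1 was higher and 1 lower in WT (13.3%, against 20.7%). In the labelled samples 3 were higher and 2 lower (33.3%, against 27%). Cdkn1a had the largest difference of these, at 24.9, 150 and 123 CPM in LrNK WT and 118 and 264 CPM in LrNK labelled CD8KO, against at most 6.99 CPM in cNK. No samples overlapped, and the log2 difference was 4.19 ± 0.69 in WT and 6.07 ± 0.41 in the labelled samples (adjusted p = 0.00922 and 0.000775 by edgeR). The 2 pocket proteins Rbl1 in WT (-0.74 ± 0.13) and Rbl2 in the labelled samples (-0.71 ± 0.11) were lower, while Rb1 was higher in the labelled samples (0.56 ± 0.11). With any 1 cNK sample of the same label left out, the calls of Cdkn1a in WT (4.19, 4.31 and 4), Rbl2 (-0.72, -0.71 and -0.72) and Rb1 (0.54, 0.53 and 0.61) were lost, and that of Rbl1 without cNK WT 1 (-0.72). Rb1 was also lost by voom (0.56) and Rbl2 in a fit of 4 groups (-0.72).

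Most sums of markers of other cells were higher in LrNK than in cNK. Not every member went with its sum. Lef1, Marco, Prdm1 and Car2, for example, were lower in every LrNK sample than in any cNK sample. The 10 neutrophil and monocyte markers summed to 1002 to 8638 CPM in LrNK and 625.1 to 845.1 CPM in cNK, led by Lyz2 in LrNK, with Ly6g and Retnlg at 0 in LrNK WT. The 10 erythroid markers summed to 290 to 3428 CPM against 195.1 to 232.1 CPM. The 10 Kupffer cell markers summed to 224.6 to 1557 CPM and 225 to 343.3 CPM, which overlapped, with Clec4f at 0 in cNK. The 10 hepatocyte markers summed to 32.81 to 64.86 CPM against 1.361 to 2.223 CPM. The 10 T cell markers summed to 598.7 to 1080 CPM against 437.5 to 488.5 CPM, with Cd8b1 at 0 in LrNK WT. The 10 B cell markers summed to 242.8 to 450.9 CPM against 180.5 to 245 CPM, which overlapped. The 7 plasma cell markers summed to 200.5 to 515.7 CPM against 175.7 to 185.2 CPM, with Tnfrsf17 at 0 in LrNK WT and cNK. The 8 markers common to NK cells summed to 4169 to 8975 CPM in LrNK and to 12300 to 13830 CPM in cNK, with the LrNK range split by label as given above. Among the LrNK samples, LrNK WT 2 had the lowest neutrophil and monocyte sum (1002 CPM) and the lowest E2f1 (3.94 CPM). It was also the lowest for Top2a, Ccna2 and Aurkb, but not for Mki67, Cdk1 or Cdt1, and it was the highest for Pcna (447.9 CPM). The highest sum (8638 CPM) was in LrNK CD8KO 1, with E2f1 at 13 CPM. The highest E2f1 (20.24 CPM) was in LrNK WT 3, with a sum of 4222 CPM. The part of these cells in the differences between LrNK and cNK was not tested.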

How the data were processed

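The authors deposited whole-number counts per Ensembl gene, 1 file for each of 13 libraries. Per the labels' protocols, sorted cells gave total RNA for TruSeq libraries. Alignment software and build in the submitters' processing notes were HISAT2 2.1.0 and GRCm38. Which program counted reads, with what annotation and strand setting, was not given in the sources used here, so overlapping genes cannot be told apart. Of 54532 identifiers, 54495 matched GENCODE M21. CPM are counts per 1e6 counts of the sample.

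Each comparison was fitted on its own 2 groups with edgeR 4.0.16 (R 4.3.3, TMM, filterByExpr at min.count 10 and min.total.count 15, quasi-likelihood test), because spread differed between cell types (biological coefficient of variation 98.2% in LrNK, 9.6% in cNK). The interaction used all 4 groups. Fits of LrNK against cNK still took a shared estimate of spread from both cell types, so their SE and adjusted p mix the wide LrNK spread with the narrow cNK spread. A gene was called at a Benjamini-Hochberg adjusted p under 0.05 over all genes tested, and all 40 members passed the filter in each comparison. The SE is the log2 change divided by the square root of F. Fits were also run on simulated counts, where most genes had the same mean in all groups, unlike LrNK and cNK here. No result given here rests on that run. Closely agreeing pairs had a chi-square per degree of freedom under 4. Samples with under 16000 detected genes were called few. DESeq2 1.42.0 and voom of limma 3.58.1 were among the alternatives. Any member could be named, and of each other list the 3 genes of smallest p in a comparison. Members and lists were chosen with earlier results of these data known.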

Additional observations from a re-analysis of the deposited data

How the results depend on the processing

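The median log2 change of the 40 genes kept its sign in every comparison between groups under every alternative run. In cNK by label, 33 of 40 changes were above 0 under all 3 scalings. With no filter on low counts, 4 genes were higher there (0.873% of all genes were). By DESeq2 4 were higher (1.38% of all) and 1 lower (1.7%). In a fit of all 4 groups, 0 were called (0.00518% of all). Leaving out 1 sample gave 0 to 2 higher (0.146 to 0.568% of all). In LrNK by label, the median was 0.96 in the samples with many detected genes, and 0.07 to 0.53 with 1 sample left out.

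In LrNK against cNK of WT, the counts as reported were 2 higher and 1 lower. The share of all genes called in the same direction is in brackets below. Library totals gave 2 lower (11.4%), no filter 1 higher (5.22%), DESeq2 4 lower (13.5%) and voom 3 lower (9.24%). The 13 separate libraries gave 3 lower (13.2%), and the fit of 4 groups 1 higher (11.9%) and 4 lower (13.4%). Samples with few detected genes gave 4 higher and 3 lower (41.2% of all genes were called), and the 1 with many gave 28 lower and a median of -0.91 (58.2% of all genes called). Leaving out 1 sample gave 0 to 4 higher (3.44 to 15.5%), 0 to 5 lower (2.42 to 25.8%) and a median of -0.71 to -0.05. In LrNK against cNK labelled CD8KO, with 3 and 3 as reported, library totals gave 5 lower (14.8%) and no filter 5 lower (6.95%). DESeq2 gave 5 higher (20.4%) and 7 lower (17.7%), and voom 1 lower (5.55%). Separate libraries gave 6 lower (17.6%), and the fit of 4 groups 1 higher (10.4%). The sample with few detected genes gave 9 higher and 16 lower (69.4% of all genes called), and the 1 with many 14 lower (55.5%). Leaving out 1 cNK sample gave 0 higher (6.39 to 6.89%) and 1 lower (3.33 to 3.65%). A lone LrNK sample was assumed to vary like cNK, which is far less than LrNK samples varied, so those counts are a description only. For the interaction, leaving out 1 sample gave 0 to 1 higher and a median of -0.02 to 0.50. The causes were not tested. Scaling by library totals moved the median of all genes in LrNK against cNK labelled CD8KO from -0.05 to -0.17, and that of the 40 from -0.15 to -0.27.

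In cNK by label, replicate numbers did not pair the samples (correlations of deviations 0.0252, 0.015 and 0.0507 for the same number). In LrNK by label, where only 2 numbers are shared, the same number gave 0.3 and 0.491. Different numbers there gave -0.491 to 0.196. With n = 2 for LrNK labelled CD8KO, the 2 deviations mirror each other, so this check does not decide on pairing in LrNK. The LrNK samples numbered 1 had few detected genes, and those numbered 2 had many. With the replicate block, 2 genes were higher in cNK by label (0.854% of all genes were). In LrNK against cNK of WT, 1 was higher and 0 lower (6.17% and 4.77% of all). In the labelled samples 1 was higher and 1 lower (7.7% and 4.45% of all). Of the named genes, Cdt1, Stmn1 and Hmgb2 in WT, and Ccne1, Cdk2, E2f1, Gins4, Mcm6, Rb1, Rbl2 and Ube2c in the labelled samples, were not called with the block.

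In LrNK WT 3, 9 of the 40 genes had under 10 counts, and in LrNK WT 1 there were 2 such genes, both at 0. Cell type and organ cannot be told apart in LrNK against cNK.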
